A study of Mus musculus with 8 samples.

Results

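Glutamine and glutamate are exchanged and converted in the brain by a small group of enzymes and carriers, and 9 of their genes were followed here in cerebellar tissue of mice with and without ATM. They were *Gls2*, *Glul*, *Glud1*, *Got1*, *Got2*, *Gpt*, *Gpt2*, *Slc38a3* and *Slc1a5*, chosen by name as a glutaminase, the glutamine synthetase, a glutamate dehydrogenase, the transaminases and a pair of glutamine transporters. The choice was made with earlier results of these data known. All 9 were found among the 56691 genes of the deposited count table, and all 9 passed the filter on low counts that left 22423 genes for testing. The deposited data held 8 libraries of total RNA from mouse cerebellum, 4 labelled Control with genotype ATM +/+ (*Atm*-WT) and 4 labelled ATM-KO with genotype ATM -/- (*Atm*-KO), from mice aged 6 months. Animals came from the B6;129S4-Atmtm1Bal/J line, in which *Atm* is disrupted in the germline and therefore in every cell, and WT and KO mice were bred from heterozygous parents. No treatment is named in the labels of either genotype. Libraries carry a mouse number and the letter M or F, namely 2M, 7M, 13M and 32M for *Atm*-WT and 1M, 7F, 11M and 12M for *Atm*-KO, so that mouse 7F was the only animal marked F. *Xist*, a transcript of female cells, had 70528 counts in mouse 7F and 0 to 14 counts in every other library. The labels give each library a mouse identifier of its own, without saying how litters or collection days were shared, and the p-values below measure the spread between these animals.

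Glutaminase removes the amide group of glutamine and releases glutamate and ammonia in mitochondria, whereas glutamine synthetase joins glutamate and ammonia again in the cytosol. Glutamate enters the tricarboxylic acid (TCA) cycle as α-ketoglutarate, either through glutamate dehydrogenase or through transaminases that pass its amino group to oxaloacetate or pyruvate. In the cerebellum these steps are divided among cells, since glutamine synthetase is a hallmark of astrocytes and of the Bergmann glia that surround Purkinje cell dendrites, while glutaminase supplies the glutamate of granule and other neurons. The study asked whether cerebellar tissue without ATM leans on glutamine in place of glucose as a mitochondrial fuel, and examined c-Myc at the promoter of the glutaminase gene *GLS2*. Transcript levels of these genes are a part of that question. They measure neither protein nor flux.

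The c-Myc and Max heterodimer prefers the palindromic E-box CACGTG, which reads the same on both strands. The 2000 bases before the annotated start of each gene's Ensembl canonical transcript were searched for these 6 letters in the GRCm39 genome with the GENCODE vM39 annotation. Of 21770 protein-coding genes, 5304 (24.4%) held the motif in this window. Among the members 2 of 9 held it, *Glud1* at a pair of places and *Slc38a3* once. The letters were not in the window of *Gls2*, of *Glul* or of any of the other members, which says nothing about binding there. The study reported predicted c-Myc sites at both the mouse and the human *Gls2* promoter, from a scored motif rather than these exact letters. It tested binding at the human promoter, in patient fibroblasts. These 3 stretches, with 12 bases on each side of the motif and the motif in capitals, are shown because they are the places within the searched windows where the members carry the core sequence of the factor named by the study. Each is written 5′ to 3′ on the strand of its gene.
*Glud1*, chr14:34031286-34031315, plus strand: aggttgtcacttCACGTGtacaaaacattt
*Glud1*, chr14:34031433-34031462, plus strand: ctagtaatgtggCACGTGataggtagcttg
*Slc38a3*, chr9:107546536-107546565, minus strand: taagctctatccCACGTGtccggcaatctt
In *Glud1* the motif covered bases 1285 to 1280 and bases 1138 to 1133 before the start, and in *Slc38a3* bases 1372 to 1367. The *Glud1* stretches lie outside the annotated gene, whereas that of *Slc38a3* lies within it, in an intron of 5 of its 32 annotated transcripts, which start further upstream than the canonical one. The match is a description of the sequence, and neither gene passed the test across all genes described below.

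The libraries held between 76912738 and 88030300 counts for *Atm*-WT and between 65967130 and 78431478 counts for *Atm*-KO mice, mouse 12M having the fewest. Levels are given as CPM, counts scaled to a common library size with TMM factors, and as mean ± SD over 4 mice. *Atm*, the targeted gene, had 71.5 ± 10.1 CPM in *Atm*-WT libraries against 45.4 ± 4.16 CPM without ATM, with no overlap (log2 fold change −0.66, SE 0.10, adjusted p = 0.0775 by edgeR's quasi-likelihood test). Cerebellar markers were present in every library, the 8 granule cell markers summing to between 5769 and 8147 CPM and the 8 Purkinje cell markers to between 8395 and 10480 CPM. *Atm*-KO mouse 12M stood apart. *Slc17a6*, a vesicular glutamate transporter of neurons outside the cerebellar cortex, had 4.32 CPM there against 73.7 to 115.7 CPM in the 7 other libraries, and the 8 oligodendrocyte markers summed to 2033 CPM against 3236 to 4411 CPM. Fold changes of the members are therefore given with and without mouse 12M, and so are those of other named genes where leaving it out turned the direction or moved the log2 fold change by over 1.5 times. Measures of the RNA itself also differed between the genotypes. Transcripts of the GENCODE class TEC, which await experimental testing, took 0.204% to 0.333% of counts in *Atm*-WT against 0.354% to 0.530% in *Atm*-KO libraries, and mitochondrially encoded transcripts 0.903% to 1.199% against 0.565% to 0.952%. Mouse 7F was the *Atm*-KO library nearest to *Atm*-WT on both measures. Their part in the results was not tested. In the tissue as a whole, fewer cells of a type and less RNA per cell cannot be told apart.

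The members spanned a wide range of levels. Per kb of exon, *Glul* was the most abundant at 312.5 ± 18.1 CPM per kb in *Atm*-WT libraries, followed by *Got1* at 48.2 ± 2.66, *Glud1* at 45.7 ± 3.37 and *Got2* at 33.3 ± 1.39 CPM per kb. The next were *Gpt2* at 7.11 ± 0.70, *Slc38a3* at 5.32 ± 0.44, *Gls2* at 4.66 ± 0.22 and *Gpt* at 2.04 ± 0.29 CPM per kb, and *Slc1a5* was at the bottom with 0.235 ± 0.038 CPM per kb. All 4 *Atm*-WT libraries had this same order, although the means of *Got1* and *Glud1* differed by less than their SDs and the ranges of *Slc38a3* and *Gls2* per kb overlapped. In *Atm*-KO libraries *Glul* was again first, at 242.3 ± 45.6 CPM per kb, and *Slc1a5* last, at 0.265 ± 0.057 CPM per kb. Mouse 7F kept the order of the *Atm*-WT libraries. *Gls2* ranked above *Slc38a3* in mice 1M and 11M and above both *Slc38a3* and *Gpt2* in mouse 12M, and *Glud1* ranked above *Got1* in mice 1M and 12M. The *Atm*-KO means of *Gpt2* (5.77 ± 0.60 CPM per kb), *Gls2* (5.24 ± 0.52 CPM per kb) and *Slc38a3* (4.62 ± 0.28 CPM per kb) lay close together, and so did those of *Got1* (41.8 ± 5.56 CPM per kb) and *Glud1* (41.3 ± 4.34 CPM per kb).

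**Figure D1:**
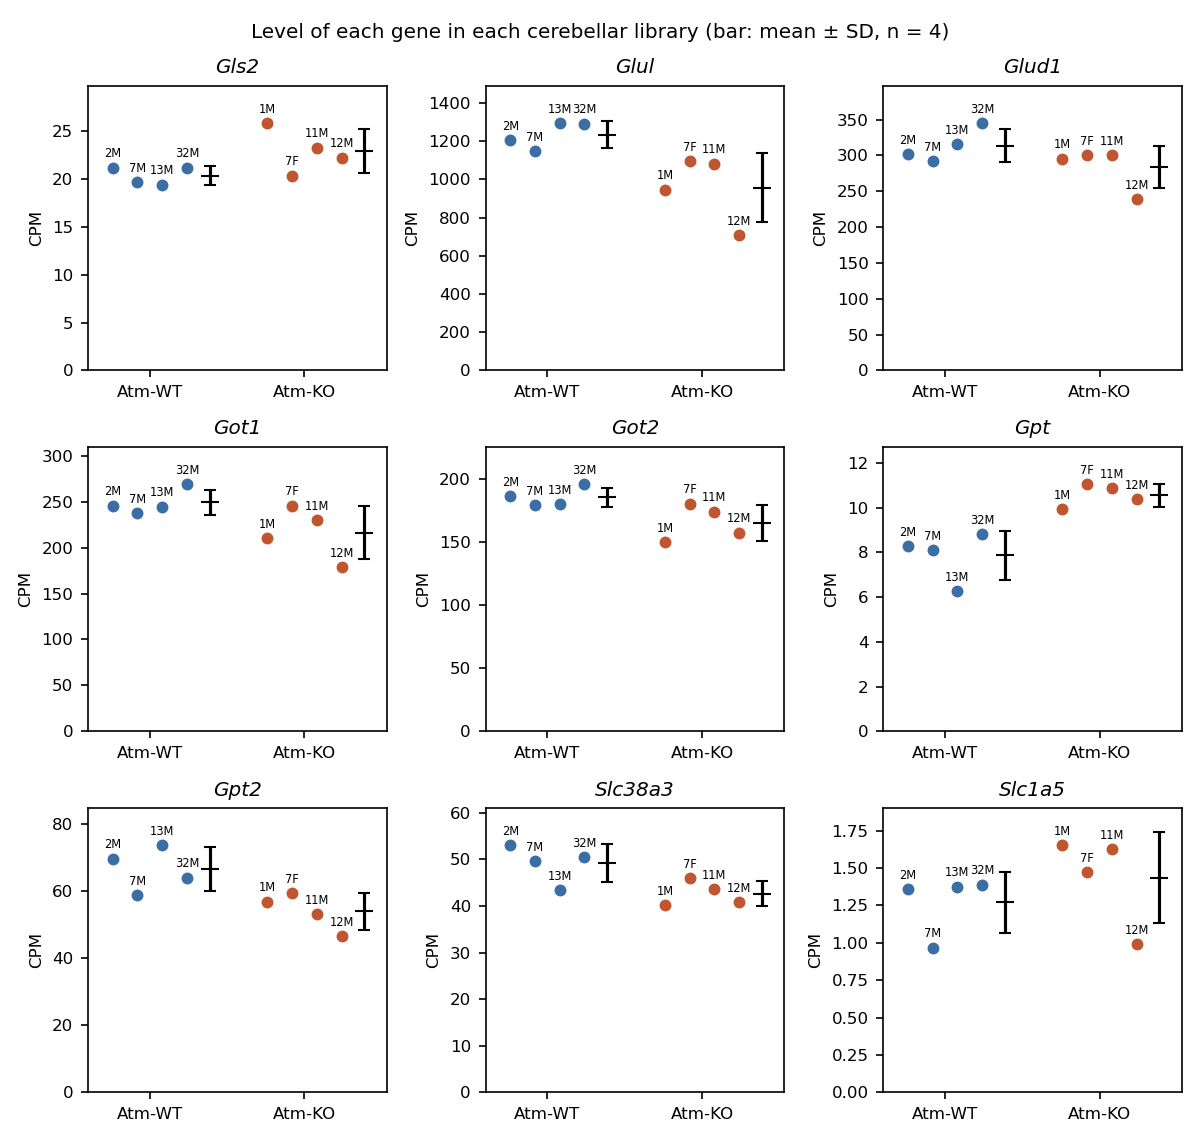
Level of each of the 9 genes in CPM (vertical axes, linear, from 0) in each cerebellar library, blue for *Atm*-WT and orange for *Atm*-KO, labelled by mouse, with the mean ± SD over 4 mice as a bar. The genotypes are separated for *Glul*, where every *Atm*-KO mouse lies below 1147 CPM, and for *Gpt*, where every *Atm*-KO mouse lies above 8.82 CPM.

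Between genotypes, 6 of the 9 genes had a lower and 3 a higher mean level in *Atm*-KO cerebellum, and none of these differences passed an adjusted p of 0.05 over all genes tested. In that edgeR fit 0 of 9 members were called, in a background where 4 of 22423 genes (0.0178%) were. At an unadjusted p under 0.05, 5 members were lower (*Glul*, *Got1*, *Got2*, *Gpt2* and *Slc38a3*) and 1 was higher (*Gpt*), compared with 8.48% of all genes lower and 11.7% higher. The study names DESeq2 in its methods and limma in a figure legend for this comparison. limma voom called 0 of the 9 and 3 of all genes (0.0134%). DESeq2 gave 2 of the 9 an adjusted p under 0.05, namely *Glul* (0.0462) and *Gpt* (0.0180), when it called 1552 (7.49%) of the 20724 genes to which it gave an adjusted p. Run on the genes that passed edgeR's filter, DESeq2 called 3 members, *Glul* (0.0448), *Gpt* (0.0155) and *Gpt2* (0.0464), and 8.13% of the 19373 genes to which it gave an adjusted p. Libraries of the genotypes did not overlap for 1 member in the lower direction (*Glul*) and 1 in the higher (*Gpt*), and 5.12% and 6.47% of all genes behaved so in the same directions. The median log2 fold change was −0.16 over the members and −0.02 over all genes tested. Abundant genes as a whole were more often lower in *Atm*-KO libraries: of the 4484 genes with the highest mean level, which included *Glul*, *Glud1*, *Got1*, *Got2* and *Gpt2*, 71.0% were lower, 15.5% were lower at an unadjusted p under 0.05 and 10.1% were lower without overlap. That balance moved with the scaling. With library size alone 55.0% of them were lower, 7.52% lower and 9.28% higher at that threshold, and with cyclic loess the shares were 54.9%, 7.45% and 9.26%, in place of 71.0%, 15.5% and 5.2% with TMM factors. The 9 members had 6 lower and 3 higher under all of these scalings, and 2 lower and 2 higher at that threshold with library size alone and with cyclic loess alike.

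*Glul* encodes glutamine synthetase, the astrocytic enzyme that makes glutamine from glutamate and ammonia. Its level was 1204, 1147, 1294 and 1290 CPM in *Atm*-WT mice 2M, 7M, 13M and 32M, and 945, 1094, 1081 and 706 CPM in *Atm*-KO mice 1M, 7F, 11M and 12M. The genotypes did not overlap, with all *Atm*-KO mice at the lower end, and mouse 12M was far below the rest. The mean was 22.5% lower, 957 ± 179.8 against 1234 ± 71.4 CPM, with a log2 fold change of −0.37 (95% interval −0.64 to −0.10) and an adjusted p of 0.148 by edgeR's quasi-likelihood test. A two-sided exact permutation test over the libraries gave p = 0.0286, the smallest that 4 mice against 4 allow. Leaving out mouse 12M brought the log2 fold change to −0.25 (edgeR, adjusted p = 0.246), and leaving out mouse 7F brought it to −0.42 (edgeR, adjusted p = 0.111). With 1 surrogate variable in the fit it was −0.16 (edgeR, adjusted p = 0.608).

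Markers of astrocytes and Bergmann glia, of which glutamine synthetase is a hallmark, had lower means as well. All 12 markers of astrocytes and Bergmann glia had lower means in *Atm*-KO libraries (11 with library size alone or cyclic loess), with a median log2 fold change of −0.16, 0 of them past an adjusted p of 0.05 and 3 (25.0%) without overlap (*Aldh1l1*, *Gdf10* and *Acsbg1*). Of all genes 53.1% had a lower mean and 5.12% were lower without overlap, and of the 4484 genes of highest level 71.0% and 10.1%. Their summed level ranged from 4124 to 4514 CPM in *Atm*-WT against 3737 to 4077 CPM in *Atm*-KO libraries, and none of the defining markers was at 0. The ratio of *Glul* to this sum was 0.292, 0.254, 0.293 and 0.311 in *Atm*-WT mice and 0.253, 0.268, 0.277 and 0.175 in *Atm*-KO mice 1M, 7F, 11M and 12M. Measured against these markers, the genotypes overlapped, and mouse 12M alone lay far below the others. Mouse 12M also had the lowest sum of oligodendrocyte markers, 2033 CPM against 3236 to 4411 CPM elsewhere. The part of the glial markers in the level of *Glul* was not tested. Across the 8 libraries, the genes whose log2 profile lay nearest to that of *Glul* were *Selenop*, *Plin3* and *Camk2a*, at a root mean square difference of 0.0505, 0.0597 and 0.0632, while *Glul* itself had an SD of 0.288 on that scale. They were picked from 15739 genes with a mean of at least 1 CPM.

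*Gls2* encodes the liver-type glutaminase, which turns glutamine into glutamate in mitochondria. Its levels of 21.2, 19.7, 19.4 and 21.2 CPM in *Atm*-WT mice 2M, 7M, 13M and 32M lay close together. In *Atm*-KO mice 1M, 7F, 11M and 12M they were 25.9, 20.4, 23.3 and 22.2 CPM. All *Atm*-KO mice but 7F were above the highest *Atm*-WT mouse. The mean was 22.9 ± 2.29 CPM against 20.4 ± 0.96 CPM, a log2 fold change of 0.17 with a 95% interval of −0.02 to 0.36 (edgeR, adjusted p = 0.299), and the exact two-sided permutation test gave p = 0.0857. The log2 fold change was 0.19 without mouse 12M (edgeR, adjusted p = 0.402), 0.24 without mouse 7F (edgeR, adjusted p = 0.15) and 0.11 without mouse 1M (edgeR, adjusted p = 0.613). Its nearest profiles among the same 15739 genes were those of *Rilpl2*, *Gm45767* and *Rhbdd3*, at a root mean square difference of 0.0419, 0.044 and 0.0496 on the log2 scale against an SD of 0.137 for *Gls2*.

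**Figure D2:**
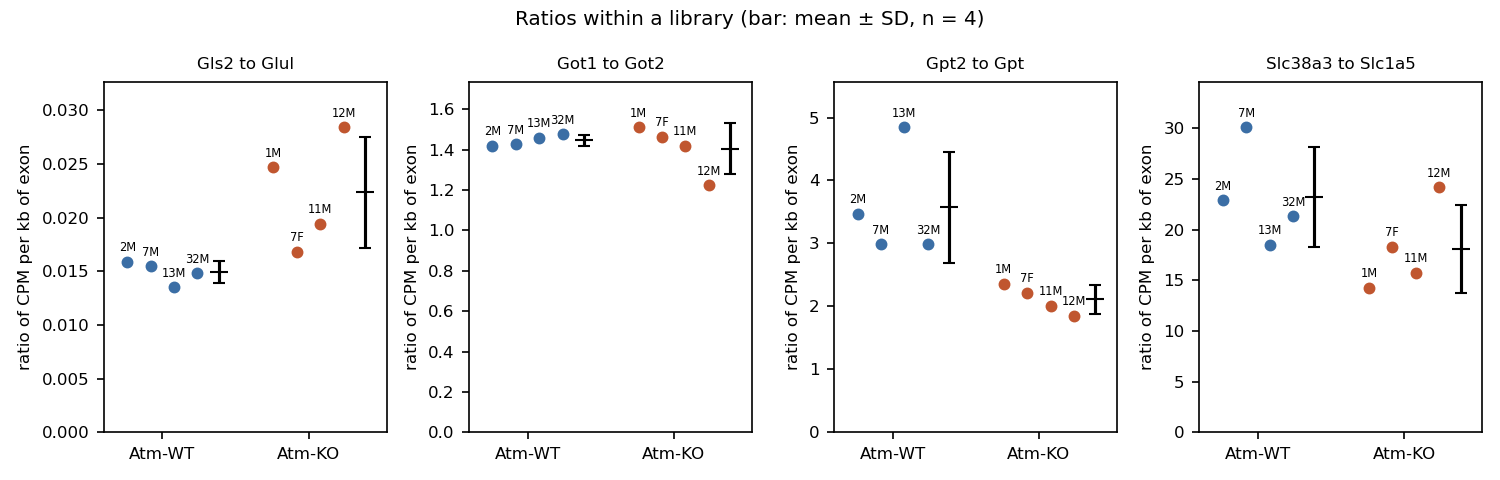
Ratios of members that work against each other or share a reaction, computed within each library from CPM per kb of exon (vertical axes, no unit, from 0), with the mean ± SD over 4 mice as a bar. *Gls2* to *Glul* and *Gpt2* to *Gpt* do not overlap between genotypes, while *Got1* to *Got2* and *Slc38a3* to *Slc1a5* do.

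The glutaminase and the synthetase run in opposite directions, and a ratio within a library is free of scaling between libraries. *Gls2* to *Glul*, per kb of exon, was 0.0159, 0.0155, 0.0135 and 0.0148 in *Atm*-WT mice 2M, 7M, 13M and 32M and 0.0247, 0.0168, 0.0194 and 0.0284 in *Atm*-KO mice 1M, 7F, 11M and 12M. The genotypes did not overlap, mouse 7F being nearest to the *Atm*-WT range. The ratio of the geometric means was 1.47, and it was 1.35 without mouse 12M and 1.60 without mouse 7F. These ratios were chosen with the separate levels in view and are given without a test. The difference was made of a lower *Glul* in all 4 and a higher *Gls2* in 3 of 4 *Atm*-KO mice.

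*Glud1* encodes glutamate dehydrogenase, the mitochondrial enzyme that deaminates glutamate to α-ketoglutarate. *Atm*-WT mice 2M, 7M, 13M and 32M had 301.6, 292, 316 and 345 CPM. *Atm*-KO mice 1M, 7F and 11M, at 296, 300.4 and 299.9 CPM, were inside that range, and mouse 12M, at 239 CPM, lay below it. The log2 fold change was −0.14 with an interval of −0.33 to 0.04 (edgeR, adjusted p = 0.367), and it was −0.07 without mouse 12M (edgeR, adjusted p = 0.694). It was −0.09 with cyclic loess (limma, adjusted p = 0.598), and with 1 surrogate variable in the fit the sign turned, at 0.0022 (edgeR, adjusted p = 0.994).

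The aspartate transaminases move the amino group of glutamate to oxaloacetate, *Got1* in the cytosol and *Got2* in mitochondria, and both serve the malate-aspartate shuttle. *Got1* was at 246, 238, 244 and 269 CPM in *Atm*-WT mice 2M, 7M, 13M and 32M and at 210, 246, 229.5 and 179 CPM in *Atm*-KO mice 1M, 7F, 11M and 12M. Mouse 7F sat among the *Atm*-WT mice and mouse 12M was lowest, and the log2 fold change was −0.21 (interval −0.41 to −0.0043, edgeR unadjusted p = 0.046, adjusted p = 0.240). It was −0.13 without mouse 12M (edgeR, adjusted p = 0.477), and −0.04 with 1 surrogate variable (edgeR, adjusted p = 0.883).

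*Got2* was at 186, 179, 180.1 and 196 CPM in *Atm*-WT mice 2M, 7M, 13M and 32M. In *Atm*-KO mice 1M, 7F, 11M and 12M it was at 149.9, 180.6, 174 and 157 CPM, again with mouse 7F alone inside the *Atm*-WT range. Its log2 fold change was −0.16 (interval −0.32 to −0.0083, edgeR unadjusted p = 0.0406, adjusted p = 0.226), −0.14 without mouse 12M (edgeR, adjusted p = 0.432) and −0.08 with 1 surrogate variable (edgeR, adjusted p = 0.762). *Got1* and *Got2* both had lower means in *Atm*-KO libraries. Their ratio per kb, 1.45 ± 0.027 in *Atm*-WT against 1.40 ± 0.13 in *Atm*-KO libraries, overlapped between genotypes. Mouse 12M had the lowest ratio of all, 1.22, and the ratio of the geometric means was 0.97, or 1.01 without it.

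The alanine transaminases, which exchange amino groups between glutamate and pyruvate, differed in opposite directions. *Gpt*, the cytosolic enzyme, was at 8.27, 8.10, 6.27 and 8.82 CPM in *Atm*-WT mice 2M, 7M, 13M and 32M and at 9.92, 11.1, 10.9 and 10.4 CPM in *Atm*-KO mice 1M, 7F, 11M and 12M. Every *Atm*-KO mouse was above every *Atm*-WT mouse, and the 4 *Atm*-KO values lay within a narrow band. The mean was 34.2% higher, with a log2 fold change of 0.42 (SE 0.12, interval 0.16 to 0.69, edgeR unadjusted p = 0.005, adjusted p = 0.116) and an exact two-sided permutation p = 0.0286. Of the 9 genes it had the smallest p. Leaving out mouse 12M left the log2 fold change at 0.43 (edgeR, adjusted p = 0.225), and leaving out *Atm*-WT mouse 13M, the lowest, gave 0.35 (edgeR, adjusted p = 0.146).

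*Gpt2*, the mitochondrial enzyme, was at 69.7, 58.8, 73.8 and 64.0 CPM in *Atm*-WT mice 2M, 7M, 13M and 32M and at 56.9, 59.4, 53.2 and 46.6 CPM in *Atm*-KO mice 1M, 7F, 11M and 12M. The ranges met only where *Atm*-KO mouse 7F exceeded *Atm*-WT mouse 7M. Its log2 fold change was −0.30 (interval −0.50 to −0.10, edgeR unadjusted p = 0.00682, adjusted p = 0.126), and the exact two-sided permutation test gave p = 0.0571. Without mouse 12M it was −0.24 (edgeR, adjusted p = 0.262), and with 1 surrogate variable −0.23 (edgeR, adjusted p = 0.476). Per kb of exon, the ratio of *Gpt2* to *Gpt* was 3.47, 2.99, 4.85 and 2.99 in *Atm*-WT mice 2M, 7M, 13M and 32M and 2.36, 2.22, 2.02 and 1.85 in *Atm*-KO mice 1M, 7F, 11M and 12M. All *Atm*-KO ratios were below all *Atm*-WT ratios, at 0.60 times the *Atm*-WT geometric mean and 0.63 times without mouse 12M. Transcripts of the mitochondrial enzyme thus outnumbered those of the cytosolic one in all 8 libraries, and by a smaller margin in *Atm*-KO mice.

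Both transporters carry glutamine across the plasma membrane. *Slc38a3* encodes SNAT3, the system N carrier through which astrocytes exchange glutamine, and it was at 53.1, 49.7, 43.4 and 50.4 CPM in *Atm*-WT mice 2M, 7M, 13M and 32M and at 40.2, 45.9, 43.6 and 40.9 CPM in *Atm*-KO mice 1M, 7F, 11M and 12M. *Atm*-WT mouse 13M lay within the *Atm*-KO range and the 3 other *Atm*-WT mice above it. The log2 fold change was −0.20 (interval −0.37 to −0.035, edgeR unadjusted p = 0.022, adjusted p = 0.179), and −0.19 without mouse 12M (edgeR, adjusted p = 0.35). Divided by the summed markers of astrocytes and Bergmann glia, *Slc38a3* was 0.0115 ± 0.0013 in *Atm*-WT against 0.0108 ± 0.0005 in *Atm*-KO libraries, with overlap. *Slc38a3* was the only member on chromosome 9, which also carries *Atm*, and it lies 54.1 Mb from it.

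*Slc1a5* encodes ASCT2, a neutral amino acid exchanger that imports glutamine into many dividing cells. It was the least abundant member, with 1.36, 0.967, 1.38 and 1.39 CPM in *Atm*-WT mice 2M, 7M, 13M and 32M and 1.65, 1.47, 1.63 and 0.992 CPM in *Atm*-KO mice 1M, 7F, 11M and 12M, from as few as 67 counts in a library. Apart from *Atm*-WT mouse 7M and *Atm*-KO mouse 12M the *Atm*-KO levels were higher, and the log2 fold change was 0.17 with a wide interval of −0.33 to 0.68 (edgeR, adjusted p = 0.708). It was 0.31 without *Atm*-KO mouse 12M (edgeR, adjusted p = 0.552), 0.06 without *Atm*-WT mouse 7M (edgeR, adjusted p = 0.916) and 0.10 without *Atm*-KO mouse 1M (edgeR, adjusted p = 0.89). With 1 surrogate variable it was 0.40 (edgeR, adjusted p = 0.628), and with cyclic loess 0.06 (limma, adjusted p = 0.90). The interval includes a difference as large as that of *Gpt*.

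**Figure D3:**
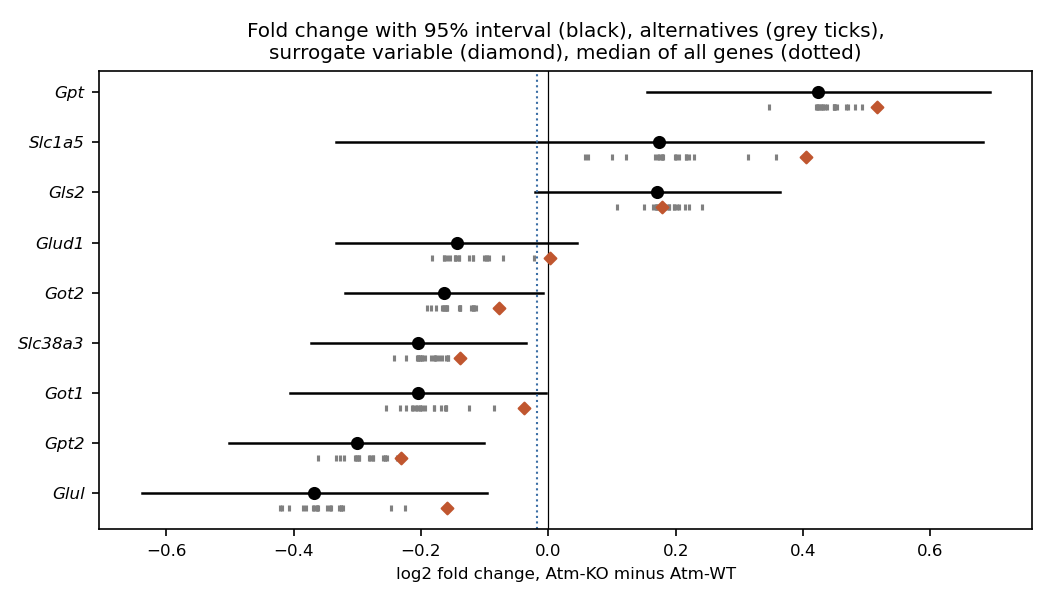
Log2 fold change of each member, *Atm*-KO minus *Atm*-WT (horizontal axis), as a black point with its 95% interval, with the estimates under 20 alternatives as grey ticks, the fit with 1 surrogate variable as a diamond and the median of all genes tested, −0.02, as a dotted line. *Gpt* and *Gpt2* lie on opposite sides of 0 under every alternative, and the diamond of *Glud1* lies next to 0, at 0.0022.

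Several libraries decided how many members were under an unadjusted p of 0.05. Because the members were chosen with earlier results of these data known, their share beside that of all genes is no independent comparison. The number lower was 5 of 9 (55.6%) with all libraries, in a background of 8.48% of all genes, and both numbers moved with the libraries used. It was 3 when *Atm*-KO mouse 12M or 11M or *Atm*-WT mouse 13M or 32M was left out (6.01% to 7.26% of all genes), and 2 when *Atm*-KO mouse 1M (5.67%) or *Atm*-WT mouse 2M (6.68%) was left out. It was again 5 when *Atm*-KO mouse 7F was left out, that is, among mice marked M (7.81% of all genes), or *Atm*-WT mouse 7M (8.63%). Over these 8 fits, 9.48% to 14.7% of the 4484 genes of highest level were lower at that threshold, beside 15.5% with all libraries. With 1 surrogate variable the number was 1 (4.35% of all genes), and with library size alone in place of TMM factors it was 2 (4.66%), with 2 higher (14.6%). *Gpt* was higher at that threshold under all 20 alternatives.

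**Figure D4:**
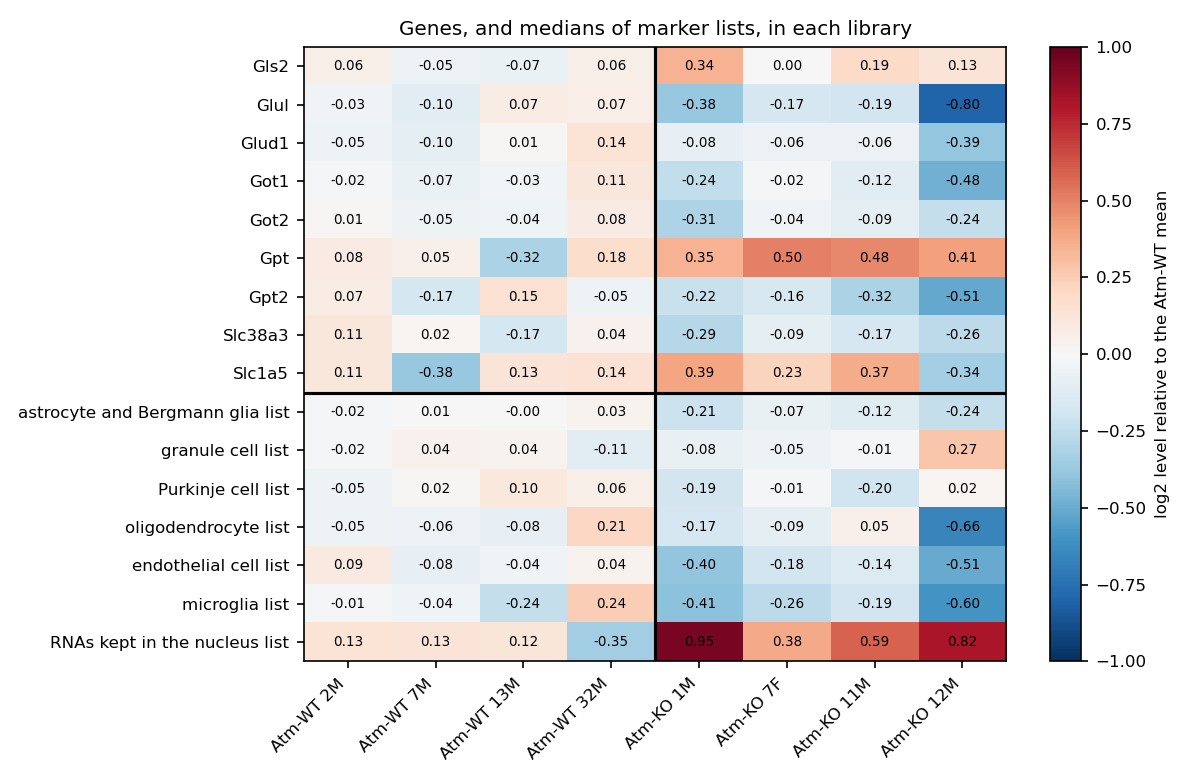
Log2 level relative to the *Atm*-WT mean (colour and number, red above and blue below) of the 9 members in 4 *Atm*-WT and 4 *Atm*-KO libraries. Below the line are medians of the marker lists for astrocytes and Bergmann glia, granule, Purkinje, oligodendrocyte, endothelial and microglial cells, and RNAs kept in the nucleus. The other marker lists are not drawn. *Glul* reaches its lowest value in mouse 12M, *Gpt* is above 0 in every *Atm*-KO library, and the list of RNAs kept in the nucleus is above 0 in every *Atm*-KO library.

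Levels of other marker lists also differed in mean between the genotypes. The marker and pathway lists were chosen with earlier results of these data known, so their counts beside those of all genes are no independent comparison. All 11 RNAs kept in the nucleus had higher means in *Atm*-KO libraries, 8 of them without overlap and 1 with an adjusted p under 0.05, beside 46.9% of all genes higher in mean, 6.47% higher without overlap and 0.0178% called, with summed levels of 5164 to 10070 CPM in *Atm*-WT against 10650 to 16390 CPM in *Atm*-KO libraries (median log2 fold change 0.70). Among cell type markers lower means were common, as they were among all genes (53.1%) and the 4484 genes of highest level (71.0%). All 8 microglial markers were lower (142.7 to 189.4 CPM summed in *Atm*-WT, 109.3 to 143.8 CPM in *Atm*-KO), as were 6 of 8 endothelial markers (356.8 to 409.5 against 248.7 to 325.1 CPM), all 8 oligodendrocyte markers (3369 to 4411 against 2033 to 3485 CPM, 5 of 8 lower without mouse 12M, when the median log2 fold change went from −0.18 to −0.04) and all 6 choroid plexus markers (780 to 1548 against 427 to 1209 CPM). Granule cell markers were higher in 5 of 8 cases (median log2 fold change 0.05), or in 2 of 8 without mouse 12M (median −0.03), and Purkinje cell markers lower in 7 of 8 (median −0.09, or −0.14 without mouse 12M, and 5 of 8 lower with cyclic loess). With library size alone the medians were 0.10 for granule and −0.04 for Purkinje cell markers, and with cyclic loess 0.11 and −0.03. Meningeal fibroblast markers summed to 87.1 to 116.5 CPM in *Atm*-WT against 76.8 to 101 CPM in *Atm*-KO libraries, and red blood cell genes to 5.87 to 42.9 and 7.8 to 49.5 CPM. Their part in the levels of the 9 genes was not tested.

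A further 67 genes of glutamine and glutamate handling in 8 lists show how the members compare with the rest of the pathway. Of these, 63 were tested, 46 were lower and 17 higher in *Atm*-KO libraries, and 0 had an adjusted p under 0.05 by edgeR, with 2 by DESeq2 (*Slc7a5*, 0.0361, and *Slc13a3*, 0.0481), where the share over the 20724 genes with an adjusted p was 7.49%. The share lower, 73.0%, was near the 71.0% of the 4484 genes of highest level. At an unadjusted p under 0.05, 10 were lower (15.9%, beside 8.48% of all genes and 15.5% of those of highest level) and 2 higher (3.17%, beside 11.7% and 5.2%). Without mouse 12M, 6 were lower (9.52%, beside 6.01% of all genes and 10.1% of those of highest level) and 1 higher (1.59%, beside 8.22% and 3.28%). The median log2 fold change was −0.09, or −0.04 without mouse 12M. With library size alone in place of TMM factors it was −0.03, when the median of all genes was 0.03. At that scaling 41 of the 63 were lower, 3 at an unadjusted p under 0.05 (4.76%, beside 4.66% of all genes and 7.52% of those of highest level). Libraries did not overlap for 5 genes (7.94%), all lower: *Ppat*, *Oat*, *Slc7a5*, *Idh1* and *Slc13a3*. That share lies between the 5.12% of all genes and the 10.1% of genes of highest level that were lower without overlap. In each list the genes named are those with the smallest p.

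**Figure D5:**
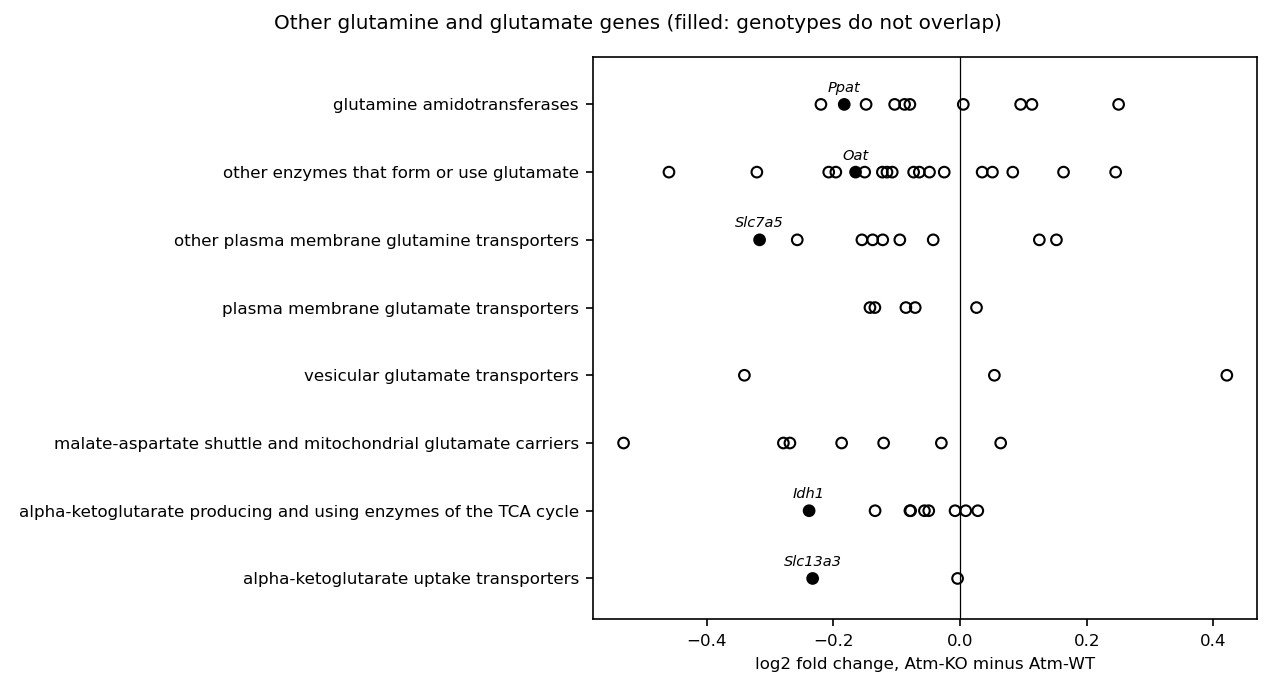
Log2 fold change, *Atm*-KO minus *Atm*-WT (horizontal axis), of the 63 tested genes of glutamine and glutamate handling other than the members, a circle for each gene in rows by list. Filled circles mark the 5 genes whose libraries do not overlap between genotypes, and all 5 lie below 0.

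Glutamine amidotransferases, which spend the amide nitrogen of glutamine in synthesis, were lower in 6 and higher in 4 of 10 cases. *Cad*, the first enzymes of pyrimidine synthesis, was at 33.9 ± 3.07 CPM in *Atm*-WT against 40.3 ± 3.77 CPM in *Atm*-KO libraries (log2 fold change 0.25, edgeR adjusted p = 0.157). *Ppat*, which opens purine synthesis, was at 28.3 ± 1.44 and 25.0 ± 1.55 CPM (−0.18, edgeR adjusted p = 0.205), and *Gfpt1*, of hexosamine synthesis, at 152.6 and 143.6 CPM (−0.09, edgeR adjusted p = 0.413).

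Of 18 other enzymes that form or use glutamate, 13 were lower and 5 higher. At an unadjusted p under 0.05, 3 were lower (16.7%, beside 8.48% of all genes and 15.5% of those of highest level). At that threshold 1 was higher (5.56%, beside 11.7% and 5.2%). Without mouse 12M, 15 were lower and 3 higher, and the median log2 fold change was −0.04 in place of −0.09. At that threshold 1 was then lower (5.56%, beside 6.01% of all genes and 10.1% of those of highest level) and 0 were higher. *Oat*, the ornithine transaminase, was at 97.3 ± 6.48 and 86.8 ± 3.08 CPM (log2 fold change −0.17, edgeR adjusted p = 0.185). *Bcat1*, the cytosolic branched-chain transaminase, had 139.5 ± 15.3 and 111.7 ± 24.0 CPM (−0.32, edgeR adjusted p = 0.237), and its log2 fold change was −0.18 without mouse 12M (edgeR adjusted p = 0.389). *Kyat1*, a kynurenine and glutamine transaminase, was on the higher side with 9.67 ± 1.09 and 11.5 ± 0.76 CPM (0.25, edgeR adjusted p = 0.243).

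Among 9 other glutamine transporters 7 were lower, or 6 without mouse 12M, led by *Slc7a5*, the light chain of the exchanger LAT1, at 100.8 ± 13.6 CPM in *Atm*-WT against 80.9 ± 2.84 CPM in *Atm*-KO libraries (log2 fold change −0.32, edgeR unadjusted p = 0.00391, adjusted p = 0.113). *Slc7a5* ranged from 89.2 to 118.1 CPM in *Atm*-WT against 78.6 to 85.0 CPM in *Atm*-KO mice. Its heavy chain partner *Slc3a2* was at 84.3 and 76.7 CPM (−0.14, edgeR adjusted p = 0.249), and *Slc38a2*, encoding the neuronal carrier SNAT2, at 366.6 and 336.9 CPM (−0.12, edgeR adjusted p = 0.366). Plasma membrane glutamate transporters were lower in 4 of 5 cases, or 3 of 5 without mouse 12M, by small amounts. The astrocytic *Slc1a2* was at 2928 ± 271.9 and 2653 ± 395.9 CPM (log2 fold change −0.14, edgeR adjusted p = 0.521, and −0.06 without mouse 12M). *Slc1a3* of Bergmann glia was at 1338 and 1261 CPM (−0.09, and −0.14 without mouse 12M), and *Slc1a6* of Purkinje cells at 145.8 and 138.8 CPM (−0.07, and −0.13 without mouse 12M). Vesicular transporters showed no common direction. *Slc17a7* of granule cells was at 340.6 and 353.6 CPM (0.05, edgeR adjusted p = 0.775), with a log2 fold change of −0.04 without mouse 12M. *Slc17a6* was at 84.9 ± 20.6 and 67.0 ± 44.0 CPM (−0.34, edgeR adjusted p = 0.786), and both the lower mean and the SD came from mouse 12M, since the 3 other *Atm*-KO libraries averaged 87.9 CPM and gave a log2 fold change of 0.05 (edgeR adjusted p = 0.919). *Slc17a8* was at 0.239 and 0.323 CPM.

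The list of mitochondrial glutamate carriers and of the malate-aspartate shuttle, in which *Got1* and *Got2* take part, had 6 of 7 genes lower and 3 of them at an unadjusted p under 0.05, or 7 of 7 and 1 without mouse 12M. At that threshold 3 of 7 is 42.9%, where 8.48% of all genes and 15.5% of those of highest level were lower, and 1 of 7 is 14.3%, where 6.01% and 10.1% were. *Mdh1*, the cytosolic malate dehydrogenase, was at 448.1 ± 42.5 CPM in *Atm*-WT against 369.3 ± 45.2 CPM in *Atm*-KO libraries (log2 fold change −0.28, edgeR unadjusted p = 0.0139, adjusted p = 0.154). *Mdh2*, its mitochondrial counterpart, was at 181.9 ± 11.3 and 159.8 ± 14.2 CPM (−0.19, edgeR adjusted p = 0.199), and *Slc25a13*, an aspartate-glutamate carrier, at 7.36 ± 2.29 and 5.09 ± 1.25 CPM (−0.53, edgeR adjusted p = 0.241). The median over the 7 genes was −0.19, beside −0.02 over all genes tested and −0.06 over the 4484 genes of highest level. With library size alone 5 of 7 were lower, 1 at an unadjusted p under 0.05 (14.3%, beside 7.52% of the genes of highest level).

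Enzymes that make or use α-ketoglutarate in the TCA cycle were lower in 7 of 9 cases with a median of −0.06, or in 8 of 9 with −0.03 without mouse 12M. With library size alone 6 of 9 were lower, with a median of −0.00969, and with cyclic loess 6 of 9, with −0.00325. *Idh1*, the cytosolic isocitrate dehydrogenase, was at 26.6 ± 2.35 and 22.5 ± 2.37 CPM without overlap (log2 fold change −0.24, edgeR adjusted p = 0.200). *Ogdh*, which oxidizes α-ketoglutarate, was at 349.8 and 318.7 CPM (−0.13, edgeR adjusted p = 0.312), and *Idh3b* at 134.2 and 127.2 CPM (−0.08, edgeR adjusted p = 0.540). Of 2 tested carriers that import α-ketoglutarate and related acids from outside the cell, *Slc13a3* was at 27.9 ± 0.51 CPM in *Atm*-WT against 23.7 ± 1.30 CPM in *Atm*-KO libraries without overlap (−0.23, edgeR unadjusted p = 0.006, adjusted p = 0.122), and *Slc13a5* was at 8.63 and 8.60 CPM (−0.0039, and −3.9e-05 without mouse 12M).

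The members lie on 8 chromosomes, and their positions are given on GRCm39. *Gls2* runs from 128030316 to 128045873 on chromosome 10, *Glul* from 153775690 to 153785469 on chromosome 1, *Glud1* from 34032583 to 34067642 on chromosome 14 and *Got1* from 43488188 to 43513674 on chromosome 19. *Gpt* lies on chromosome 15 from 76579616 to 76583890, *Slc38a3* on chromosome 9 from 107527815 to 107547018, and *Slc1a5* on chromosome 7 from 16515265 to 16532731. *Got2* (96590760 to 96615190) and *Gpt2* (86218810 to 86255577) share chromosome 8.

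Exons of 5 members overlap those of other annotated genes, and without a stated strand setting their reads cannot be told apart from the partners'. *Gls2* overlaps *Spryd4* on the opposite strand, which had 427 to 559 counts and a log2 fold change of 0.11 (edgeR unadjusted p = 0.383). *Glul* overlaps *Teddm2*, with 250 to 760 counts per library, and *Gpt* overlaps *Gm56705*, with 7 to 22 counts. *Glud1* overlaps *Shld2* on the opposite strand, at 1027 to 1532 counts, and a pseudogene at 5 to 15 counts. *Got2* overlaps *Gm45760*, at 205 to 385 counts, and its pseudogene *Got2-ps1* had 49 to 116 counts. *Got1*, *Gpt2*, *Slc38a3* and *Slc1a5* overlap no other annotated exon.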

How the data were processed

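Whole cerebellar RNA of 8 mice was measured. According to the study's methods, saline-perfused tissue was snap frozen and sequenced by Novogene on an Illumina HiSeq instrument. The authors checked reads with FastQC 0.11.9, mapped them to GRCm39 with STAR, assigned them to genes with featureCounts, and deposited raw counts without normalization. Strand and pair settings are not given in the sources used here. Of the counts from 1 to 50, 67.3% to 73.3% were even in each library, so whether a count is a read or a read pair was not settled. With 65967130 to 88030300 counts per library, counting error was small for all members but *Slc1a5*.

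Identifiers without version were matched to GENCODE vM39 (56017 of 56691, 98.8%), which also gave exon lengths, positions and sequences. Libraries were grouped by the genotype in their labels. All 8 entered one edgeR 4.0.16 fit in R 4.3.3 (filterByExpr, TMM, glmQLFit, glmQLFTest, common dispersion 0.0404), with Benjamini-Hochberg adjustment over 22423 genes, a threshold of 0.05 and no covariate. Log2 CPM used a prior count of 2. Single genes were also compared by two-sided exact permutation over libraries. Profiles were compared by the root mean square difference of mean-centred log2 CPM.

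The members and all gene lists (8 pathway lists, and 11 marker lists for astrocytes and Bergmann glia, granule, Purkinje, oligodendrocyte, endothelial, microglial, choroid plexus, meningeal fibroblast and red blood cells, neurons outside the cerebellar cortex, and RNAs kept in the nucleus) were chosen with earlier results of these data known. Named genes were the members, *Atm*, the 3 genes of smallest p in each pathway list, genes without overlap, and the 3 nearest profiles of *Gls2* and *Glul*. The 3 astrocyte markers without overlap and the overlapping neighbours were named after their values were seen.

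Alternatives were DESeq2 1.42.0 without the filter on low counts, limma 3.58.1 voom with or without cyclic loess, RLE factors, library size alone, no filter, at least 10 counts in every library, protein-coding genes alone, 1 surrogate variable (sva 3.50.0) and each library left out. Halved counts, DESeq2 on the filtered genes, and leaving out *Atm*-WT 32M and *Atm*-KO 12M together, were chosen after seeing the data.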

Additional observations from a re-analysis of the deposited data

Results flagged for a closer look

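In *Atm*-KO mouse 12M, *Glud1* had 239 CPM, far from the 296 to 300.4 CPM of the 3 other *Atm*-KO mice. The gap took up 0.920 of the group's range, above Dixon's 95% critical value of 0.829 for 4 libraries. In *Atm*-WT mouse 7M, *Slc1a5* had 0.967 CPM against 1.36 to 1.39 CPM in the 3 other *Atm*-WT mice, with a gap of 0.932 of the range. Of 26 groups examined in this way 2 stood out, where chance gives 1.3 at 1 in 20.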

How the results depend on the processing

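Over 9 members and 20 alternatives, 174 fold changes kept their direction and their side of an adjusted p of 0.05. DESeq2, run without the filter on low counts, gave 2 members (*Glul*, adjusted p = 0.0462, and *Gpt*, 0.0180) and 2 pathway genes where edgeR gave 0, and on the filtered genes alone 3 members (also *Gpt2*, 0.0464) and 2 pathway genes. *Glud1* reversed to 0.0022 with 1 surrogate variable. All genes past the threshold numbered 4 with edgeR (2 higher), 1552 with DESeq2 (1046 higher), 1575 with DESeq2 on the filtered genes (1034 higher), 591 with edgeR without the filter (416 higher), 2 among protein-coding genes and 24 without *Atm*-WT 32M and *Atm*-KO 12M, and from 1 to 27 with a library left out, the 27 without *Atm*-WT 13M, 10 without *Atm*-WT 32M, 2 without *Atm*-WT 7M and 1 without *Atm*-WT 2M, *Atm*-KO 1M or *Atm*-KO 11M. The pathway genes' median log2 fold change, −0.0855, was −0.0348 with library size alone, −0.0361 with cyclic loess, −0.0619 with at least 10 counts, −0.0427 among protein-coding genes, −0.0362 with the surrogate variable, −0.0612 with halved counts, −0.0511 without *Atm*-WT 32M and *Atm*-KO 12M, and from −0.0972 to −0.0448 with a library left out, the last without *Atm*-KO 12M. The causes were not tested. No paired analysis was possible. The genotypes share a single mouse number, 7, but *Atm*-WT mouse 7M and *Atm*-KO mouse 7F are different animals, with 6 and 70528 counts of *Xist*.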
